A study of Canis lupus familiaris with 8 samples.

Results

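Ribosomal protein genes were followed across the states of dog blood T cells. Members were the gene rows whose symbol starts with RPL or RPS followed directly by a digit, without the RPS6 kinase genes and with at least 100 unique molecular identifiers (UMIs, each counting 1 captured RNA molecule) in kept cells. Of 20257 gene rows, 60 had such a name and 58 were members, with 57 symbols because RPL31 had 2 rows. RPL3L with 2 UMIs and RPL10L with 0 fell short of the minimum. The members comprised 34 rows of the large ribosomal subunit, 23 of the small subunit and RPS19BP1, which encodes a protein that binds RPS19 and is not itself a part of the ribosome.

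The study sorted viable TCRαβ+ T cells from the blood of 4 healthy Beagle dogs by flow cytometry and profiled single cells by 10x 5′ RNA-seq. The animals were a 5-year-old female (dog 1) and 3 males, aged 7 years in dogs 2 and 3 and 9 years in dog 4. All dogs had received routine vaccinations, and the study names no other treatment. All 4 libraries came from cryopreserved cells that were thawed together and sequenced in 1 run, and the dog was the replicate. Cells with 500 to 20000 UMIs and at most 10% mitochondrial UMIs were kept, which left 7096, 8454, 8109 and 8250 cells in dogs 1 to 4 and 26404260 to 35053757 UMIs per library. Libraries shared 81 to 113 cell barcodes per pair.

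The ribosome translates mRNA into protein and is built from ribosomal RNAs and one copy of most ribosomal proteins in a large and a small subunit. Vertebrate ribosomal protein mRNAs carry a terminal oligopyrimidine tract, and their translation is raised by mTOR signalling when a T cell is stimulated. Quiescent naive T cells are known to hold ribosomal protein mRNA as a large part of their transcripts.

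Cells were gated by at least 1 UMI of each gate gene, in the manner of virtual gating. Single-positive cells (sp) held CD4 or CD8A but not the other, double-positive cells (dp) held both and double-negative cells (dn) held neither. CCR7 and LEF1 are markers of naive T cells, GZMB encodes a granule protease of cytotoxic cells, FOXP3 is the master regulator of regulatory T cells, and MKI67 marks cycling cells. A cell with MKI67 was counted as cycling first, then FOXP3+, then GZMB+, and the rest were divided into CCR7+LEF1+, CCR7-LEF1- and cells with one of these genes. The T cell receptor chain CD3E stood at 1175 to 1359 CPM (UMIs per 1000000 UMIs) in the kept cells of the 4 dogs, and the summed level of 5 monocyte markers at 0.60 to 0.99 CPM. The gates carried other markers of their names. TCF7, SATB1 and BACH2 were among the 4 of 5 tested naive markers that rose in CD4 sp CCR7+LEF1+ cells, 7 of 8 effector markers rose in CD8A sp GZMB+ cells, 6 of 6 regulatory markers rose in FOXP3+ cells and 7 of 7 cell cycle markers rose in MKI67+ cells. The naive marker IL7R did not rise in CD4 sp CCR7+LEF1+ cells (log2 fold change -0.14, lower in 4 of 4 dogs). In CD8A sp CCR7+LEF1+ cells 3 of 4 naive markers rose, without IL7R (0.07), and 7 of 7 effector markers fell. Within CCR7+LEF1+ cells, CCL5 (-4.39) and CCL4 (-3.18) were lower in CD4 sp than in CD8A sp cells. The study also used CCR7 to name central memory clusters, so these gates need not hold naive cells alone.

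The share of all UMIs that came from the 58 members was 23.68%, 21.27%, 21.99% and 19.93% in the kept cells of dogs 1 to 4, a mean of 21.7% ± 1.56 (SD, n = 4). By gate, the mean share ran from 25.6% ± 1.38 in CD8A sp CCR7+LEF1+ cells down to 16.3% ± 0.989 in CD8A sp MKI67+ cells, the latter in the 3 dogs with at least 20 such cells. Next to the top stood CD4 sp CCR7+LEF1+ cells at 24.0% ± 1.33, followed by CD8A sp and CD4 sp cells with one of CCR7 and LEF1 at 23.4% ± 2.05 and 22.7% ± 1.60. A middle group of dn cells (21.6% ± 1.52), dp cells (21.6% ± 1.35), CD8A sp CCR7-LEF1- cells (20.9% ± 0.822), CD4 sp FOXP3+ cells (20.7% ± 0.823), CD4 sp CCR7-LEF1- cells (20.6% ± 0.914) and CD4 sp GZMB+ cells (20.6% ± 1.60) had overlapping values between dogs. CD8A sp GZMB+ cells lay lower at 19.2% ± 0.813, and CD4 sp MKI67+ cells were near the bottom at 17.1% ± 1.27. In this order, only the steps between the first and second gate and between CD8A sp GZMB+ and CD4 sp MKI67+ cells exceeded the SD of both neighbours. A share is a part of a total, so a higher share of the members is also a lower share of the remaining genes, and RNA per cell was not measured. In such sums, fewer cells with a transcript and fewer molecules per cell cannot be told apart.

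**Figure D1:**
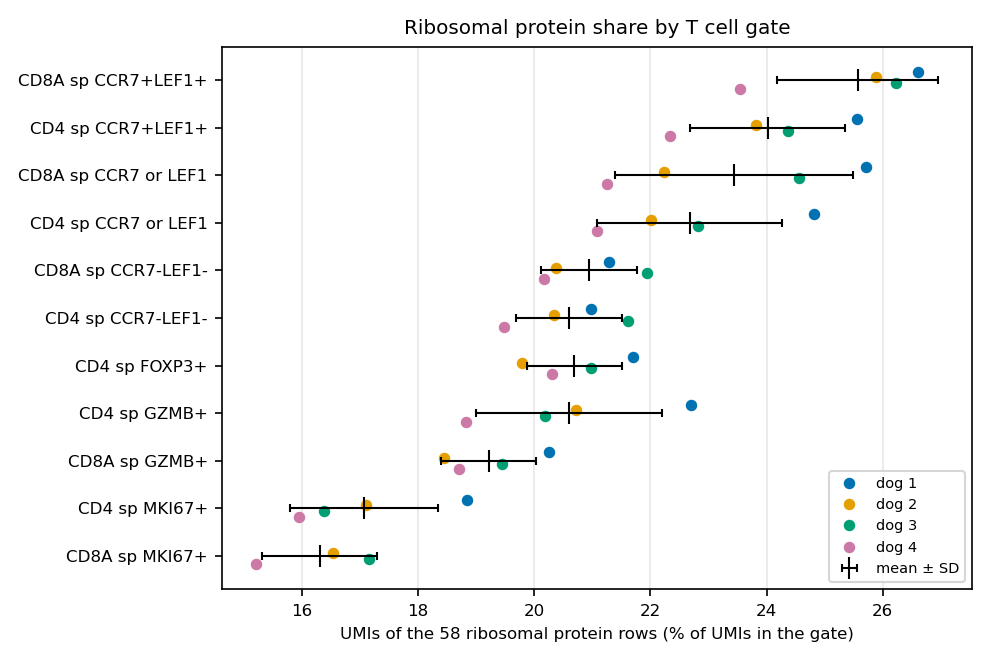
Share of all UMIs from the 58 ribosomal protein gene rows (x axis, percent) in each gate (y axis), with 1 point per dog, a tick at the mean and a bar of ± SD. CCR7+LEF1+ cells of both lineages lie highest, at means of 25.6% and 24.0%, and MKI67+ cells lowest, at 17.1% in CD4 sp and 16.3% in CD8A sp cells.

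The large and small subunits kept close to a fixed proportion. The ratio of UMIs of large subunit rows to those of small subunit rows averaged 1.19 in CD4 sp cells and 1.15 in CD8A sp cells, and its gate means spanned 1.15 to 1.19. RPS7 (1070113 UMIs), RPS14 (1053103), RPL28 (1013440), RPL32 (965478) and RPL19 (944643) gave the most UMIs, and RPL37 (5522), RPS15 (18859) and RPS19BP1 (20638) the fewest. The median member had 463478.5 UMIs. These totals are not ranked as transcript abundance, because many ribosomal protein genes have near-identical processed copies in the genome and reads that fit several of them are not counted.

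The first question was whether cells with the naive markers differ in ribosomal protein expression from cells without them. The CD8A sp CCR7+LEF1+ gate was small, with 88, 132, 157 and 39 cells in dogs 1 to 4. The CD8A sp CCR7-LEF1- gate held 127, 322, 403 and 493 cells. In CD8A sp cells, the share of the members was 26.61%, 25.89%, 26.24% and 23.54% in CCR7+LEF1+ cells of dogs 1 to 4 and 21.29%, 20.38%, 21.94% and 20.17% in CCR7-LEF1- cells. All 4 dogs were higher, the gates did not overlap, and the difference was 4.62 ± 0.989 percentage points (SD, n = 4). The CD4 sp cells had shares of 25.56%, 23.82%, 24.37% and 22.34% against 20.97%, 20.34%, 21.62% and 19.48%. Again all 4 dogs were higher, these gates did not overlap either, and the difference was 3.42 ± 0.841 percentage points. Since the gates rest on detecting a transcript, depth bears on them. Cells in which under 10% of UMIs were ribosomal protein made up 4.46% to 12.1% of the libraries, had median UMI counts of 1164 to 1380.5 against 3718 to 4189 in the other cells, and were 2.41% ± 1.21 of CD4 sp CCR7+LEF1+ cells against 15.7% ± 5.20 of CD4 sp CCR7-LEF1- cells. In CD8A sp cells they were 2.82% ± 2.20 against 9.44% ± 3.46. Within cells of 3000 to 5000 UMIs the difference was 3.45 ± 0.450 points in CD4 sp cells, and 5.77 points in CD8A sp cells of the 3 dogs with enough cells. In deeper CD4 sp cells the gates lay closer. At 5000 to 7000 UMIs the share was 25.6%, 23.4%, 24.6% and 22.0% in CCR7+LEF1+ cells of dogs 1 to 4. In CCR7-LEF1- cells of this depth it was 22.8%, 22.2%, 23.1% and 21.0%, lower in each dog but with overlap. With every cell thinned to 2000 UMIs before gating, the difference in share was 2.25 ± 0.316 points in CD4 sp cells, where the gates then overlapped. It was 4.88 ± 0.705 points in CD8A sp cells of 3 dogs, without overlap.

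Across genes, 46 of the 58 members rose in CD8A sp CCR7+LEF1+ cells and 0 fell at an adjusted p under 0.05 (edgeR quasi-likelihood test on summed counts per dog), where 6.57% of all 6206 genes tested rose. The median log2 fold change of the members was 0.45, against 0.00 over all genes tested. Higher in all 4 dogs were 54 members, with no share of all genes given for this count. Among CD4 sp cells, 26 members rose and 0 fell, where 5.12% of 9031 genes tested rose, with a median of 0.31 against 0.01 over all genes. With the dog as a block in the model, 51 members rose in CD4 sp cells, where 12.1% of all genes rose. Without the block, the count in CD4 sp cells fell to 0 when dog 2 or dog 3 was left out, whereas with the block it was 43 to 50 without any 1 dog. In CD8A sp cells 22 members were called without dog 2. With looser gates, in which 1 of CCR7 and LEF1 was enough, 0 members passed in CD4 sp and 2 in CD8A sp cells. At an unadjusted p under 0.05, 37 and 43 were higher, with no share of all genes given. After thinning to 2000 UMIs 2 members rose in CD4 sp and 44 in CD8A sp cells, also with no share of all genes given. Scaling by library size alone moved the median of all genes in CD8A sp cells to -0.16 and that of the members to 0.30.

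Large and small subunit genes were both among the leading rises. RPS27A encodes a small subunit protein fused to ubiquitin. Its level in CD8A sp CCR7+LEF1+ cells was 3031, 3101, 3069 and 2798 CPM in dogs 1 to 4, against 2015, 2040, 2158 and 2115 CPM in CCR7-LEF1- cells. All 4 dogs were higher and the gates did not overlap (log2 fold change 0.68 ± 0.087 SE, adjusted p = 0.000156). Among CD4 sp cells RPS27A was 2788, 2764, 2792 and 2475 CPM against 2081, 2027, 2115 and 1999 CPM, again without overlap (0.46 ± 0.079, adjusted p = 0.00739).

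RPL5 is a large subunit protein that also binds the p53 regulator MDM2 when ribosome assembly fails. It stood at 4341, 4198, 4428 and 3441 CPM in CD8A sp CCR7+LEF1+ cells and at 2898, 2752, 2979 and 2843 CPM in CCR7-LEF1- cells, with dog 4 the lowest of the first gate but above all dogs of the second (0.67 ± 0.10, adjusted p = 0.000531). The value of dog 4 in the first gate rests on 39 cells. Among CD4 sp cells RPL5 was 4002, 3868, 3852 and 3340 CPM against 2875, 2917, 3022 and 2642 CPM, without overlap (0.46 ± 0.092, adjusted p = 0.0131). RPL27A, a large subunit protein, was 815, 776, 761 and 879 CPM against 508, 560, 580 and 550 CPM in CD8A sp cells, the largest rise of that comparison (0.70 ± 0.094, adjusted p = 0.00022). RPL13, also of the large subunit, rose by 0.41 ± 0.093 in CD4 sp cells (adjusted p = 0.0194).

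RPL22 and its paralog RPL22L1 stood apart from each other. RPL22 is a large subunit protein that mice need for the development of αβ T cells, and RPL22L1 can take its place in the ribosome. In CD8A sp CCR7+LEF1+ cells RPL22 was 3642, 3498, 3284 and 2701 CPM, against 2442, 2263, 2401 and 2306 CPM in CCR7-LEF1- cells. All 4 dogs were higher without overlap (0.63 ± 0.11, adjusted p = 0.00107). RPL22L1 in the same cells was 315, 209, 235 and 254 CPM against 341, 330, 281 and 347 CPM, lower in all 4 dogs in plain CPM but with overlap, and its fold change was -0.22 ± 0.12 (adjusted p = 0.291). In CD4 sp cells RPL22 rose by 0.44 ± 0.10 (adjusted p = 0.0197), at 3273, 3021, 3066 and 2603 CPM against 2489, 2247, 2368 and 2104 CPM. RPL22L1 there was 290, 222, 223 and 225 CPM against 267, 240, 235 and 248 CPM, with the gates overlapping (0.03 ± 0.10, adjusted p = 0.909).

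**Figure D2:**
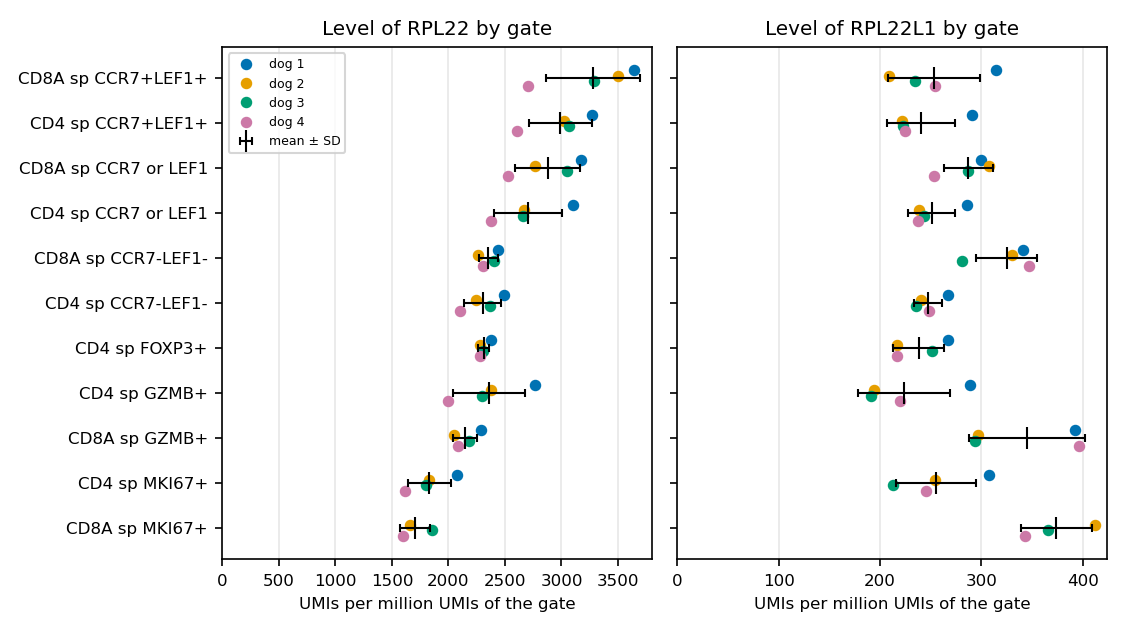
Levels of RPL22 and RPL22L1 (x axes, CPM) in each gate (y axis), with 1 point per dog and the mean ± SD. RPL22 is high in both CCR7+LEF1+ gates, at 2701 to 3642 CPM in CD8A sp cells, while RPL22L1 in the same cells is at 209 to 315 CPM, against 281 to 347 CPM in CD8A sp CCR7-LEF1- cells.

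To compare the members with each other, each was also tested relative to the summed UMIs of all members. On this scale, 4 members rose and 8 fell in CD8A sp CCR7+LEF1+ cells, where 42.6% of all genes were called, most of them lower because the members' total had risen. RPL22L1 fell the most (-0.67 ± 0.14, adjusted p = 0.00254), followed by RPS19BP1 (-0.59 ± 0.14, adjusted p = 0.00455), and RPS26 was also among the falls (-0.28 ± 0.055, adjusted p = 0.00165). RPS26 encodes a small subunit protein near the channel where mRNA leaves the ribosome, and it held 2.99% of the members' UMIs in CCR7+LEF1+ cells against 3.61% in CCR7-LEF1- cells. RPS27A (0.24), RPL5 (0.23), RPS13 (0.17) and RPS15A rose relative to the total. The number called was 3 without dog 2, 5 without dog 1, 6 without dog 3 and 16 without dog 4. With the dog as a block, 13 rose and 11 fell, where 46.8% of all genes were called. With and without the block, a smaller part of the members than of all genes was called. The scale is set by the members' own total, which favours this outcome, so it is not read as a result about the members.

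In CD4 sp cells on the relative scale, 2 members rose and 3 fell, where 28.5% of all genes were called. RPS27A (0.17 ± 0.056, adjusted p = 0.0395) and RPL5 (0.17 ± 0.054, adjusted p = 0.0355) rose. RPS19BP1 (-0.46 ± 0.13, adjusted p = 0.0252), RPS26 (-0.19 ± 0.047, adjusted p = 0.0182) and RPL28 (-0.18 ± 0.049, adjusted p = 0.0219), a large subunit gene, fell. Without dog 2 or dog 3, 0 members were called. With the block, 10 rose and 11 fell, where 45.6% of all genes were called. RPS27A, RPL5, RPS19BP1 and RPS26 passed without the block in the same direction in both lineages, in separate cells of the same dogs. The falls of RPS19BP1 and RPS26 are relative to a members' total that rose, and no member was called lower on the level scale in either lineage.

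The difference between the lineages was tested in 1 model. The difference in share of the CD4 sp cells minus that of the CD8A sp cells was -0.731, -2.02, -1.55 and -0.508 percentage points in dogs 1 to 4, so that it was larger in CD8A sp cells of each dog. By gene, 0 of 58 members passed the interaction test of edgeR, where 0.0233% of 8577 genes did. At an unadjusted p under 0.05, 1 member passed, DESeq2 called 0, and the members' median difference was -0.14 (log2, CD4 sp minus CD8A sp) against 0.01 over all genes. RPL22L1 had the highest difference at 0.26 ± 0.17 and RPL27A the lowest at -0.33 ± 0.12, neither past the threshold.

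**Figure D3:**
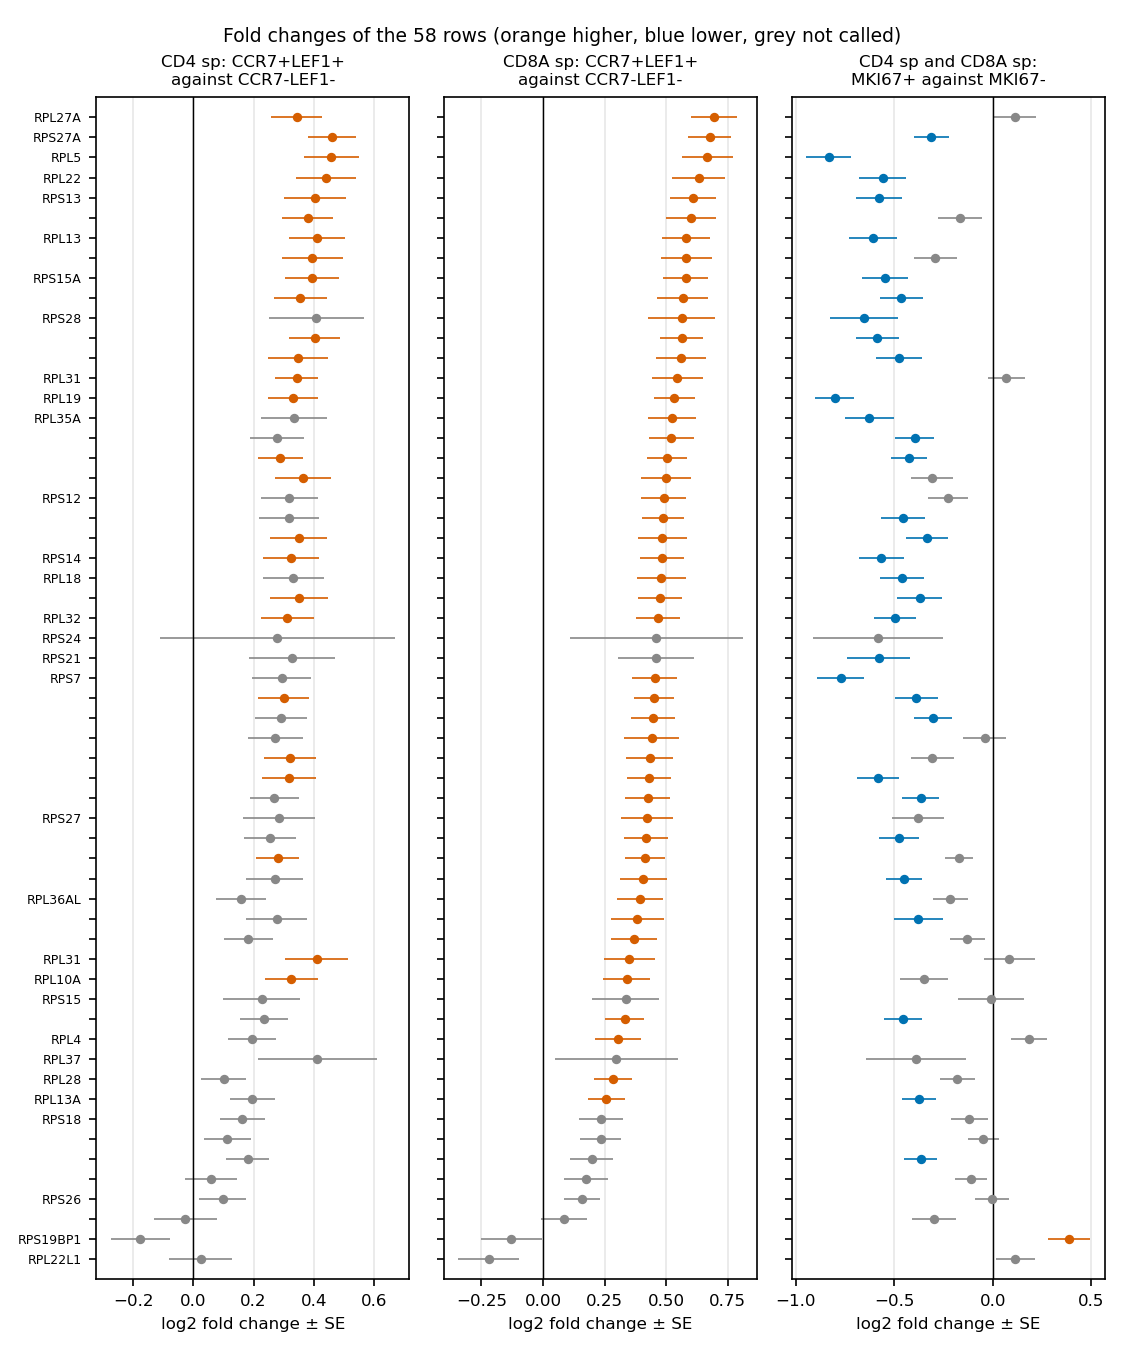
Log2 fold change ± SE (x axis) of the 58 ribosomal protein gene rows (y axis, ordered by the CD8A sp comparison, with genes named in the text labelled), in CCR7+LEF1+ against CCR7-LEF1- cells of the CD4 sp and CD8A sp lineages and in MKI67+ against MKI67- sp cells, with genes called higher in orange, lower in blue and not called in grey. Rises fill both naive marker panels (26 and 46 members called) and falls the MKI67 panel (32 called), with RPL22L1 and RPS19BP1 at -0.22 and -0.13 in CD8A sp cells.

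Cytotoxic CD8A sp cells were then set against CD8A sp cells without GZMB, CCR7 and LEF1, the same cells that served as controls above. The share was 20.25%, 18.44%, 19.45% and 18.71% in GZMB+ cells against 21.29%, 20.38%, 21.94% and 20.17%. The difference was -1.73 ± 0.624 percentage points, with each of the 4 dogs lower, and 1 dog's GZMB+ value lay above the lowest value of the other gate. In edgeR's test 0 of 58 members passed, where 3.59% of 8102 genes did in either direction. At an unadjusted p under 0.05, 17 members were lower, with no share of all genes given for that threshold. DESeq2 called 0. With the dog as a block 0 rose and 18 fell, where 4.86% of all genes fell, and 2 to 13 were called without any 1 dog.

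RPL13 had the largest fall, at 4248, 3758, 3837 and 3762 CPM in GZMB+ cells against 4926, 4514, 4731 and 4303 CPM. It was lower in each dog, and no GZMB+ value reached the lowest of the other gate (-0.23 ± 0.076, adjusted p = 0.156, and 0.00416 with the block). RPL18, RPL4 and RPL5 followed with fold changes of -0.23, -0.22 and -0.22 (block adjusted p = 0.0116, 0.0187 and 0.00513). Relative to the members' total, 0 passed without the block, where 3.73% of all genes did, with 4 higher and 2 lower at an unadjusted p under 0.05. With the block 5 rose and 3 fell, where 13.5% of all genes were called, so members were called about as often as all genes. RPL36AL (0.21) and RPS27 (0.16, a small subunit zinc finger protein) led the rises, and RPL13 and RPL18 (-0.12 each) the falls.

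FOXP3+ CD4 sp cells had a share of 21.69%, 19.79%, 20.97% and 20.31%, against 24.63%, 22.17%, 22.97% and 20.66% in the CD4 sp cells with neither FOXP3 nor MKI67. The gates overlapped, and the share was lower in each dog, with a difference of -1.91 ± 1.11 percentage points. Those other CD4 sp cells include the CCR7+LEF1+ cells. Against CCR7-LEF1- CD4 sp cells alone the difference was 0.0886 ± 0.795 points, with 2 of 4 dogs higher, so the dogs shared no direction against this control gate.

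By gene, 0 of 58 members passed in FOXP3+ cells with edgeR, where 1.28% of 9428 genes did in either direction. At an unadjusted p under 0.05, for which no share of all genes is given, 4 members were lower, and DESeq2 called 2. With the block 9 members fell, where 2.18% of all genes fell. The blocked count was 3 without dog 1, 2 or 3 and 31 without dog 4. Among the lowest were RPL5 (-0.33) and RPL13A (-0.32 ± 0.079, adjusted p = 0.0835, and 0.000147 with the block). The control of these tests includes the CD4 sp CCR7+LEF1+ cells, in which RPL5 rose by 0.46 over CCR7-LEF1- cells. No member was tested in FOXP3+ cells against CCR7-LEF1- cells alone, so these falls are not read as particular to FOXP3+ cells. RPL13A, a large subunit protein that also takes part in interferon-induced translational control, was 5040, 5351, 5778 and 5935 CPM in FOXP3+ cells and 6736, 6659, 7172 and 7126 CPM in the other CD4 sp cells, without overlap.

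Relative to the members' total, RPS26 was the 1 member that passed in FOXP3+ cells (0.24 ± 0.050, adjusted p = 0.0383, higher in 4 of 4 dogs), where 1.05% of all genes did. It did not pass without any 1 of the 4 dogs. With the block 4 rose and 4 fell, where 7.84% of all genes were called, among them RPS26, RPL28, RPS18 and RPS27 upward and RPL13A, RPL5 and RPL19 downward. The RPS26 level itself was 7472, 6879, 6812 and 6954 CPM in FOXP3+ cells, 0.12 ± 0.086 above the other CD4 sp cells on the log2 scale (adjusted p = 0.613).

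Cycling cells had the lowest shares. In MKI67+ sp cells, of either lineage, the share was 18.41%, 16.91%, 16.70% and 15.64%, against 24.14%, 21.53%, 22.08% and 20.22% in MKI67- sp cells. The gates did not overlap, all 4 dogs were lower, and the difference was -5.08 ± 0.575 percentage points (SD, n = 4). It was -5.44 ± 0.789 points within CD4 sp cells and, in 3 dogs, -3.99 ± 0.301 points within CD8A sp cells.

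The MKI67+ gate held 108, 172, 86 and 132 cells, and their median UMI count was 5144.5 to 6752.5 against 3747 to 3998 in MKI67- cells. The gate also carried a little more RNA of other blood cells. The summed level of the 5 monocyte markers found was 1.6 to 15.0 CPM against 0.4 to 0.5 CPM, with CSF1R, FCGR1A and CSF3R at 0, and the part of these cells in the result was not tested. Within cells of 3000 to 5000 UMIs, in 3 dogs, the difference was -3.66 ± 1.09 points.

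Of the 58 members, 32 fell and 1 rose in MKI67+ cells (edgeR), where 11.6% of 10040 genes fell and 14.9% rose. The members' median log2 fold change was -0.37, against -0.04 over all genes tested. With the block 45 fell, where 16.9% of all genes fell, and 2 rose, where 18.3% rose. Without dog 3 the number called dropped to 12, and without dog 2 to 21, whereas with the block it was 45 to 48 without any 1 dog. In the window of 3000 to 5000 UMIs 0 members passed, where 12 of 9892 genes rose and 1 fell at an adjusted p under 0.05. At an unadjusted p under 0.05, 45 members were lower. Without a share of all genes for that threshold, this count is not read as a result about the members.

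RPL5 fell most, at 1999, 1888, 1856 and 1589 CPM in MKI67+ cells against 3597, 3209, 3212 and 2800 CPM in MKI67- cells (-0.83 ± 0.12, adjusted p = 0.000351). RPL19, a large subunit protein, was 4734, 4677, 4302 and 4208 CPM against 8470, 7484, 7635 and 7097 CPM (-0.80 ± 0.098, adjusted p = 0.000131). RPS7, of the small subunit, was 5704, 5222, 5070 and 4639 CPM against 10132, 8321, 8417 and 7666 CPM (-0.77 ± 0.12, adjusted p = 0.000711). For each of these genes all 4 cycling values lay below the lowest value of the other gate. RPS28, also of the small subunit, was the next in order (-0.65 ± 0.17, adjusted p = 0.0171).

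Not all members fell. RPS26 was 7629, 6852, 6677 and 6574 CPM in MKI67+ cells and 7154, 6748, 6774 and 6618 CPM in MKI67- cells, higher in 2 dogs and lower in 2 after scaling (-0.00 ± 0.088, adjusted p = 0.986). RPL22 fell, at 2000, 1770, 1823 and 1608 CPM against 3003, 2568, 2567 and 2268 CPM (-0.56 ± 0.12, adjusted p = 0.00502). RPL22L1 was 327, 307, 277 and 287 CPM against 297, 249, 257 and 284 CPM, with overlapping gates (0.11 ± 0.098, adjusted p = 0.432). RPS19BP1 was the 1 member that rose, at 174, 237, 235 and 190 CPM against 140, 170, 155 and 164 CPM, without overlap (0.39 ± 0.11, adjusted p = 0.0213), but its fold change was -0.15 in the window of 3000 to 5000 UMIs.

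Relative to the members' total, 17 rose and 8 fell in MKI67+ cells, where 34.8% of all genes were called, and 14 were called in all without dog 2 or without dog 3. In cells of 3000 to 5000 UMIs 0 members passed on this scale, with 5 higher and 1 lower at an unadjusted p under 0.05. RPS19BP1 (0.78 ± 0.15, adjusted p = 0.0018), the large subunit genes RPL4 (0.58 ± 0.092, adjusted p = 0.000422) and RPL27A (0.52 ± 0.091, adjusted p = 0.00089), and RPL22L1 (0.52 ± 0.11, adjusted p = 0.00252) led the rises. RPL4 itself was 894, 851, 814 and 763 CPM against 755, 753, 645 and 719 CPM, above the other gate without overlap (0.18 ± 0.092 on the level scale, adjusted p = 0.167, and 0.0156 with the block). RPL5 (-0.43), RPL19 (-0.40), RPS7 (-0.36) and RPL35A (-0.22) led the falls. RPL27A thus had the largest rise of the CD8A sp naive marker comparison and also stood above the members' total in cycling cells.

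The coreceptor lineages were compared over all sp cells and within CCR7+LEF1+ cells. The share was 24.30%, 21.77%, 22.59% and 20.46% in CD4 sp cells and 21.76%, 19.97%, 21.02% and 19.30% in CD8A sp cells. The lineages overlapped, and CD4 sp cells were higher in each dog, with a difference of 1.77 ± 0.581 percentage points. Within CCR7+LEF1+ cells the order turned, and the difference was -1.54 ± 0.495 points, with CD4 sp cells lower in each dog. CCR7 and LEF1 were detected in 26.2% to 46.6% and 46.8% to 78.0% of CD4 sp cells, against 4.44% to 16.5% and 19.8% to 32.1% of CD8A sp cells.

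Over all sp cells, 1 member was higher in CD4 sp cells, where 6.6% of 10120 genes were, and 1 was lower, where 7.52% were. RPL13A was 6654, 6500, 6974 and 7016 CPM in CD4 sp cells against 5468, 5587, 5503 and 5508 CPM in CD8A sp cells, without overlap (0.31 ± 0.061, adjusted p = 0.00841). RPL22L1 was 286, 232, 233 and 238 CPM in CD4 sp cells against 362, 304, 289 and 363 CPM in CD8A sp cells, where every CD8A sp value lay above the highest CD4 sp value (-0.40 ± 0.11, adjusted p = 0.0364). By gate, the mean of RPL22L1 was highest in CD8A sp MKI67+ cells (374 CPM, 3 dogs), CD8A sp GZMB+ cells (345) and CD8A sp CCR7-LEF1- cells (325), and between 223 and 255 CPM in every CD4 sp gate. With the block 32 members were higher and 2 lower in CD4 sp cells, where 13.6% of all genes were higher, and 16 or 17 were called without dog 3 or dog 2.

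Relative to the members' total, RPL22L1 (-0.54 ± 0.11, adjusted p = 0.0102) and RPS26 (-0.32 ± 0.051, adjusted p = 0.00267) were lower in CD4 sp cells and 0 members were higher, where 10.7% of all genes were called. RPS26 was 6945, 6529, 6461 and 6197 CPM in CD4 sp cells against 8338, 7327, 7171 and 7323 CPM in CD8A sp cells, without overlap. With the block 8 were higher and 7 lower, where 33.7% of all genes were called. In both fits a smaller part of the members than of all genes was called, which a scale set by the members' own total favours.

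Within CCR7+LEF1+ cells, 0 of 58 members passed between the lineages with edgeR, where 0.944% of 7735 genes did in either direction. At an unadjusted p under 0.05, for which no share of all genes is given, 9 were lower in CD4 sp cells, and DESeq2 called 3. With the block 43 were lower in CD4 sp cells, where 3.5% of all genes were lower, and the count ranged from 12 without dog 2 and 15 without dog 3 to 48 without dog 1. RPS26 led (-0.29 ± 0.087, adjusted p = 0.242, and 8.94e-07 with the block), at 7008, 6529, 6362 and 6329 CPM in CD4 sp cells against 7636, 7637, 7759 and 7450 CPM in CD8A sp cells, without overlap. RPS12 (-0.27) was also lower.

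RPL13A ran the other way within CCR7+LEF1+ cells. It was 6600, 6787, 7584 and 7746 CPM in CD4 sp cells against 6016, 6286, 6055 and 6534 CPM in CD8A sp cells, also without overlap (0.13 ± 0.083, adjusted p = 0.67, and 0.0569 with the block). Relative to the members' total, 0 passed without the block, where 0.879% of all genes did, with 2 higher and 1 lower at an unadjusted p under 0.05 and 1 called by DESeq2. With the block 3 were higher and 5 lower, where 10.7% of all genes were called, so members were called about as often as all genes. RPL13A (0.30) and RPL10A (0.19) were among the higher ones, and RPS26 (-0.13) and RPS12 (-0.11) among the lower ones.

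RPS24, a small subunit protein, differed more between dogs than between gates. It was 2339, 2104, 5925 and 3662 CPM in all kept cells of dogs 1 to 4, a 2.82-fold range, against 1.67-fold between the lowest and highest gate mean. Dog 3 was highest in 10 of the 10 gates that all dogs filled, and dog 2 lowest in 9. In CD8A sp CCR7+LEF1+ cells RPS24 was 2566, 2592, 7239 and 4222 CPM against 1992, 1917, 5830 and 3584 CPM in CCR7-LEF1- cells, so that each dog was higher while the gates overlapped widely. Its fold change of 0.46 ± 0.35 had an adjusted p of 0.46 without the dog block and of 4.3e-06 with it.

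RPS28 ranged 1.60-fold between dogs, at 6764, 4791, 5444 and 4225 CPM. In CD4 sp cells it was 7501, 5686, 6383 and 4811 CPM in CCR7+LEF1+ and 5739, 4402, 5108 and 3970 CPM in CCR7-LEF1- cells, with each dog higher (0.41 ± 0.16, adjusted p = 0.121, and 1.22e-05 with the block). RPL37 and RPS21 ranged 1.78-fold and 1.55-fold, and the other 54 members under 1.4-fold, with a median over all members of 1.23-fold. Dog 1 was highest for 48 members and dog 4 lowest for 46. Each dog is 1 library of 1 animal, and age or sex differs between some of the animals, so these ranges have no test. Dogs 2 and 3, the lowest and highest for RPS24, are males of the same age, and no cause of the range was tested.

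**Figure D4:**
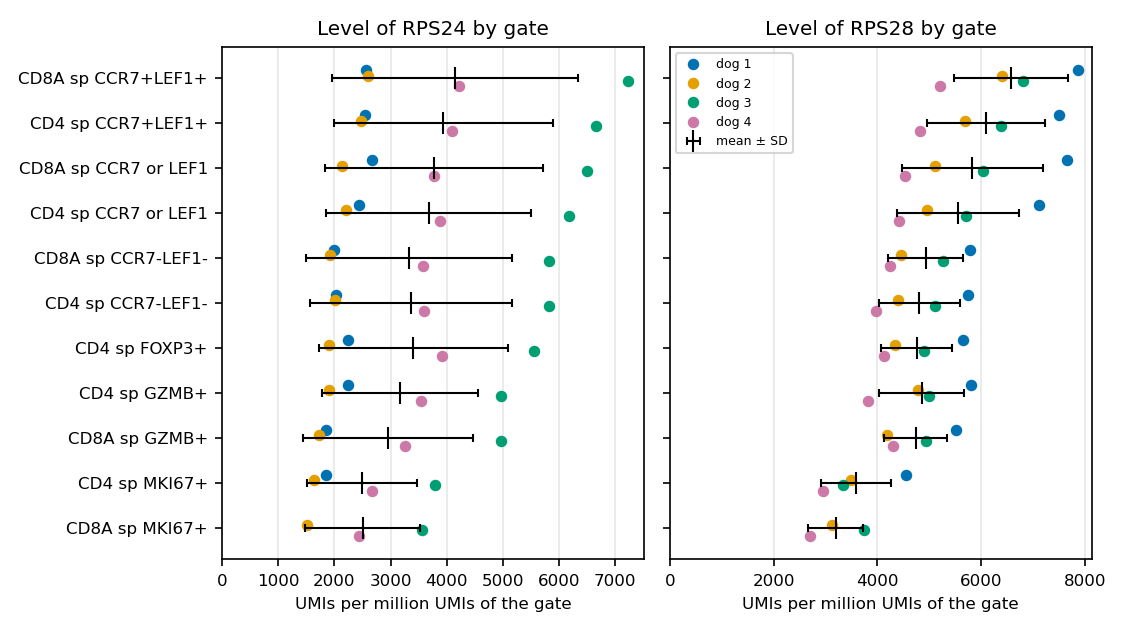
Levels of RPS24 and RPS28 (x axes, CPM) by gate (y axis), with 1 point per dog and the mean ± SD. Dog 3 is highest for RPS24 in 10 of the 10 gates that all dogs filled, with a 2.31-fold to 3.04-fold range between dogs per gate, and dog 1 is highest for RPS28 in 10 of 10, with a 1.32-fold to 1.69-fold range.

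Across the 43 sums of 1 dog and 1 gate, which share animals and libraries, the level of a member followed the share of the other members with a median Pearson r of 0.916, and 31 members had an r of at least 0.9. RPS15A (0.989) and RPS13 (0.988) followed it most closely. The 11 members with an r under 0.5 included RPS19BP1 (-0.66), RPL22L1 (-0.21), RPL4 (0.11), RPS24 (0.23) and RPS26 (0.28). Of 2897 other genes at 50 CPM or more, genes near the share included NACA (0.98), which binds nascent chains at the ribosome, and EIF4B (0.956), an initiation factor. Of the nearest 8 genes, 5 had no symbol in the files. The genes farthest from it were those of the actin cytoskeleton, namely ACTB (-0.962), ARHGDIA (-0.959), LSP1 (-0.957) and LCP1 (-0.955).

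Other genes of the translation machinery moved with the members in part. Of 4 tested ribosomal protein genes named outside the pattern, 4 rose in CD8A sp CCR7+LEF1+ cells, where 6.57% of all genes rose. RPSA, RPLP0 and FAU were among them, and the rises ran from 0.38 for RPLP0 to 0.59 for RPSA. In CD4 sp cells 0 of these 4 passed without the block and 4 rose with it, where 5.12% and 12.1% of all genes rose. Their median there was 0.28. In MKI67+ cells 2 fell, with FAU at -0.70, where 11.6% of all genes fell. Of 4 elongation factor genes tested, 3 rose in CD8A sp CCR7+LEF1+ cells, with EEF1B2 and EEF1D at 0.47 each, where 6.57% of all genes rose. EEF1A1 (-0.44) and EEF1D (-0.28) fell in MKI67+ cells, where 11.6% of all genes fell. In CD4 sp CCR7+LEF1+ cells 0 of the 4 passed without the block and 4 rose with it, where 5.12% and 12.1% of all genes rose.

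Initiation factors were mixed. Of 25 tested, 8 rose in CD8A sp and 4 in CD4 sp CCR7+LEF1+ cells and 0 fell, led by EIF3G (0.76 and 0.41), where 6.57% and 5.12% of all genes rose. With the block 10 rose in CD4 sp cells, where 12.1% of all genes rose. In MKI67+ cells 5 rose and 5 fell, where 14.9% of all genes rose and 11.6% fell, and with the block 10 rose and 5 fell, where 18.3% rose and 16.9% fell. Without the block these changes ran from EIF2S1 (0.68) and EIF3I (0.63) to EIF1 (-0.66) and EIF4A2 (-0.68). Among 9 other mRNAs with a terminal oligopyrimidine tract, 3 rose and 1 fell in CD8A sp CCR7+LEF1+ cells, where 6.57% of all genes rose and 6.48% fell. NACA (0.63), NPM1 (0.57) and TPT1 (0.34) rose and VIM (-0.99), the intermediate filament vimentin, fell. With the block 6 rose and 1 fell, where 8.25% of all genes rose and 8.11% fell. In CD4 sp cells 2 of the 9 rose and 1 fell, where 5.12% of all genes rose and 6.99% fell. With the block 5 rose and 1 fell, where 12.1% rose and 14.7% fell. In MKI67+ cells VIM (0.86) and RACK1 (0.35), a scaffold on the small subunit, rose and NACA (-0.54) fell. These were 2 and 1 of 9, where 14.9% of all genes rose and 11.6% fell. The block gave 4 rises and 2 falls, where 18.3% rose and 16.9% fell. RACK1 was -0.37 in the depth window.

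Of 61 genes of the mitochondrial ribosome tested, 23 rose and 0 fell in MKI67+ cells, where 14.9% of all genes rose. With the block 28 rose, where 18.3% of all genes did. The 61 genes had a median of 0.25, and the rises were led by MRPL27 (0.89 ± 0.098, adjusted p = 6.36e-05) and MRPL10 (0.80 ± 0.19, adjusted p = 0.0102). In cells of 3000 to 5000 UMIs the direction of these 2 genes turned (-0.21 and -0.19). In CD8A sp CCR7+LEF1+ cells 1 of 59 rose, MRPL44 (0.80), where 6.57% of all genes rose. In CD4 sp CCR7+LEF1+ cells 3 of 61 rose and 1 fell, where 5.12% of all genes rose and 6.99% fell. With the block 8 rose and 3 fell, where 12.1% of all genes rose and 14.7% fell.

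Of 27 ribosome assembly genes tested in MKI67+ cells, 2 rose and 2 fell, where 14.9% of all genes rose and 11.6% fell. The nucleolar genes NOP58 (0.39) and FBL (0.35) rose, although both were lower in the depth window (-0.75 and -0.65), and MYC (-1.11), a transcription factor that drives ribosome production, and RRP12 (-0.51) fell. MYC rose in CCR7+LEF1+ cells, by 0.54 in CD8A sp and 0.50 in CD4 sp cells, and fell by 0.70 in GZMB+ cells. Of the mTOR and S6 kinase genes, 12 were tested in CD4 sp and 8 in CD8A sp cells for the naive markers, where 6.99% and 6.48% of all genes fell, and 12 in MKI67+ cells. RPS6KA1 fell in CD8A sp (-0.95) and CD4 sp (-0.66) CCR7+LEF1+ cells and RPS6KA3 in CD4 sp cells (-0.75). MTOR, RHEB, RPS6KB1 and RPS6KB2 were not called in either naive marker comparison. EIF4EBP1 rose in MKI67+ cells (0.55), where 14.9% of all genes rose.

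**Figure D5:**
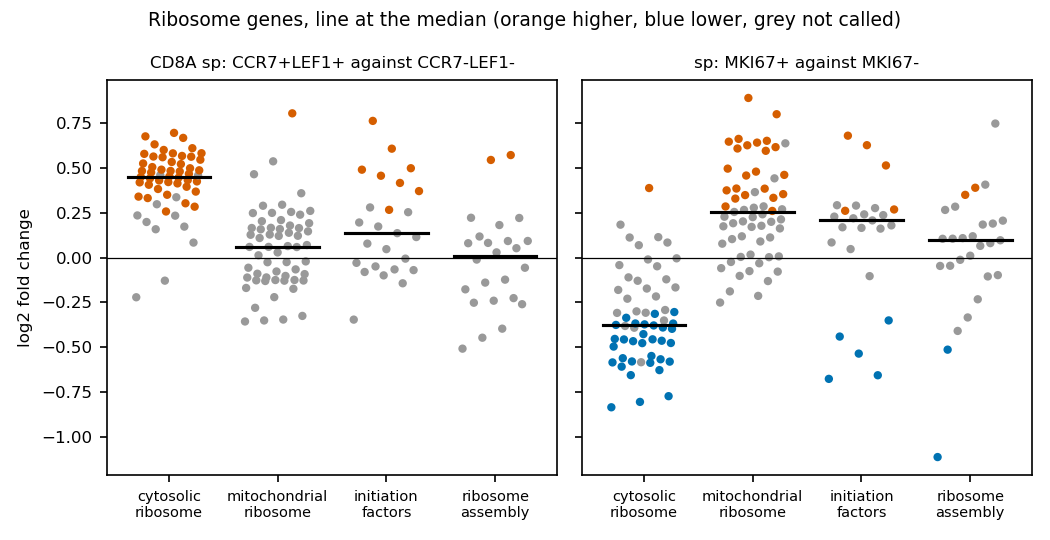
Log2 fold changes (y axis) of the genes of 4 groups (x axis: ribosomal protein members, mitochondrial ribosome, initiation factors, ribosome assembly) in CD8A sp CCR7+LEF1+ against CCR7-LEF1- cells and in MKI67+ against MKI67- sp cells, with a line at each median. The ribosomal protein members have medians of 0.45 and -0.37, and the mitochondrial ribosome 0.06 and 0.25.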

How the data were processed

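Per the labels and the study's methods, cDNA of sorted T cells of 4 dogs was made with the 10x 5′ kit, and the submitters' processing notes name Cell Ranger 5.0.1. Genes carry CanFam 3.1 identifiers. The deposited values are raw UMI counts per gene and cell, with no normalization by the authors, and whole-library depth is given in the report. Because 27980 gene names came with dog 1 for a matrix of 20257 rows, its names were not used. Those of dog 2 served for all 4 matrices, whose log row totals correlated at 0.989 or above between dogs. Flow sorting excluded doublets, and no doublet caller was run here. No sequences are shown.

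Counts were summed per dog and gate with at least 20 cells, and tested with edgeR 4.0.16 (R 4.3.3): TMM scaling, filterByExpr with a minimum count of 10, quasi-likelihood test, and Benjamini-Hochberg adjustment over all genes tested, called at 0.05. The relative scale set the library size to the summed member UMIs. Shares of the 58 members have no test. Percentages of all genes called are at an adjusted p under 0.05, and none is given for counts at an unadjusted p. Counts without such a percentage, also those under an alternative, are not read as results about the members. Samples were grouped by dog from the labels; gates of 1 dog come from the same animal, and their deviations correlated at 0.136 to 0.545, so the dog is a true pair. The main fit had no block, and blocked values are given where they change a call of a member described, or move a count of members, or of listed genes in the naive marker and MKI67 comparisons, by over 1.5 times. Without the block, p-values rest on the spread between dogs within each gate and leave the pairing out. With the block, they rest on the spread of the differences within dogs. The code was tested on simulated data.

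Named genes were, per comparison and scale, the 4 largest rises and 4 largest falls called and of 1 direction in every dog, the members with most and fewest UMIs, paralog pairs, the 2 largest changes each way of the other lists, and the genes nearest and farthest from the share; RPS24, RPS28, RPL37 and RPS21, members given for passing only with the block, and those with low correlations were chosen after their values were seen. The members and lists were chosen with earlier results of these data known. Alternatives were DESeq2 1.42.0, library size scaling, no filter, the dog block, stricter and looser gates, thinning to 2000 UMIs, a depth window, a 5% mitochondrial limit and leaving out each dog; the block with leaving out each dog was added after seeing the data. Genes not found by symbol, such as RPS2, RPS19 and RPL41, were not analysed here, and some genes that the rule names are not reported here.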

Additional observations from a re-analysis of the deposited data

Results flagged for a closer look

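RPL13A, a large subunit gene, had dog 2 apart from the other dogs in all kept cells, at 6469, 6280, 6470 and 6474 CPM in dogs 1 to 4. The gap of dog 2 to the next dog was 0.974 of the whole range, past Dixon's critical value for 4 samples. The range itself was 1.03-fold. Of 85 values examined this was the 1 past the limit, and chance passes it in about 1 of 20 groups.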

How the results depend on the processing

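With the dog block, which pairs gates of the same animal, the counts of called members were 51 (21 relative to the members' total) for the naive markers in CD4 sp cells, 24 relative in CD8A sp cells, 18 (8) for GZMB, 9 (8) for FOXP3, 43 (8) for the lineages within CCR7+LEF1+ cells and 34 (15) for the lineages over all sp cells. It moved no other count of called members by over 1.5 times, and all 141 named results kept direction and threshold under it. Without the block, 111, 70, 84 and 120 of the 141 kept both when dogs 1, 2, 3 and 4 were left out in turn. With either of CCR7 and LEF1 enough, 11 of 64 named results kept both. In cells of 3000 to 5000 UMIs 91 of 137 did. With the block and without dogs 1, 2, 3 and 4 in turn, the counts were 50, 43, 50 and 50 (CD4 sp naive markers), 13, 2, 3 and 12 (GZMB), 3, 3, 3 and 31 (FOXP3), 48, 12, 15 and 39 (lineages within CCR7+LEF1+) and 28, 17, 16 and 34 (lineages). Without the block and without any 1 dog, they were 0 to 35 (relative 0 to 6) for the naive markers in CD4 sp and 22 to 43 (3 to 16) in CD8A sp cells, 12 to 37 (14 to 26) for MKI67, 0 to 2 (1 to 2) for the lineages, and 0 for GZMB, FOXP3, the lineages within CCR7+LEF1+ cells and the interaction. With either of CCR7 and LEF1 enough, the counts were 0 (0) in CD4 sp and 2 (2) in CD8A sp cells. In cells of 3000 to 5000 UMIs they were 10 relative in CD4 sp cells, 0 (0) for MKI67, 0 relative for FOXP3 and 1 for the lineages. There, RPS19BP1 (-0.15), RACK1 (-0.37), NOP58 (-0.75), FBL (-0.65), MRPL27 (-0.21) and MRPL10 (-0.19) reversed in MKI67+ cells, and the cause was not tested. Thinning to 2000 UMIs gave 2 in CD4 sp cells, 0 relative for FOXP3 and 1 for the lineages within CCR7+LEF1+ cells. The 5% mitochondrial limit gave 16 in CD4 sp cells. No filter on low counts gave 3 relative in CD4 sp cells and 0 relative for FOXP3. DESeq2 gave 2 for FOXP3, 3 (1) for the lineages within CCR7+LEF1+ cells and 1 relative for GZMB. At least 2 UMIs per positive cell gave 6 (2) for FOXP3 and 1 relative for the lineages within CCR7+LEF1+ cells.

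The differences in share moved, in percentage points, to 2.25 in CD4 sp cells after thinning, to 3.34 with the looser gate and 5.77 in the depth window in CD8A sp cells, and to -0.975 with the looser gate for the lineages within CCR7+LEF1+ cells. For FOXP3 they moved to -3.38 with at least 2 UMIs and to 0.0886 against CCR7-LEF1- cells, where the dogs shared no direction. For MKI67 they were -6.03 with at least 2 UMIs, -3.66 in the depth window, -5.71 after thinning and -3.99 within CD8A sp cells. Leaving out a dog kept the sign of all 7. DESeq2 scaling put the median of all genes at 0.11 for MKI67 and 0.08 for FOXP3, against -0.04 and -0.02, with the members at -0.38 and -0.10. Depth limits gates that rest on 1 UMI, and 4 dogs limit all tests.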

Other observations

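The row named CD79A, a B cell receptor gene, stood at a mean of 9634 ± 560 CPM (SD, n = 4) in all kept cells, whereas CD79B was at 0.4 CPM and MS4A1 at 2.0 CPM, and PAX5 and CD22 were at 0. Over the 43 sums its level had a Pearson r of 0.892 with the share of the ribosomal protein members, described without a test because the sums share animals. It rose in CCR7+LEF1+ cells, by 0.57 in CD8A sp cells (edgeR, adjusted p = 0.00117) and 0.28 in CD4 sp cells (adjusted p = 0.049), and fell by 0.72 in MKI67+ cells (adjusted p = 0.000127). In the RefSeq gene table of the dog assembly UU_Cfam_GSD_1.0, the next protein-coding gene after CD79A is RPS19, and the files hold 0 rows of that name. Whether reads of RPS19 entered this row was not tested.

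Cells with under 10% ribosomal protein UMIs were 7.26%, 12.1%, 4.46% and 10.4% of the kept cells of dogs 1 to 4. Their median mitochondrial share was 4.45% to 6.20% against 1.51% to 2.33%. The genes with the largest excess in them were ITGB1, an integrin (2.79 on the log2 scale after adding 10 CPM), ITGA2 (2.68) and AHNAK (2.58), each higher in all 4 dogs.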
